A study of Mus musculus with 12 samples.

Results

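The genes of oxidative phosphorylation were followed through the brains of mice that lack exon 7 of Auts2, a neurodevelopmental regulator whose long isoform depends on that exon. Protein-coding genes were taken whose symbols start with Nduf, Uqcr, Atp5 or Cox4 to Cox8, together with Sdha to Sdhd, Cyc1, Cycs and the 13 protein genes of the mitochondrial genome. The choice rested on symbols and no measured value entered the rule, though earlier results of these data were known when it was made. It gave 109 of the 55487 genes in the count tables, of which 96 are encoded in the nucleus and 13 in the mitochondrion. The nuclear genes comprise 46 of complex I, 4 of complex II, 9 of complex III, 18 of complex IV, 18 of complex V and Cycs, the cytochrome c gene; 87 are subunits or the carrier and 9 are assembly or coupling factors. The mitochondrial genes comprise 7 of complex I, 1 of complex III, 3 of complex IV and 2 of complex V.

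Each library came from 1 male mouse, with 3 mice in each of 4 groups. The P0 knockouts carry Cmv-cre, which recombines in all tissues including the germ line, and are homozygous for the loss of Auts2 exon 7. Their controls are wild-type littermates labelled BL6 WTLM, and the tissue is forebrain at postnatal day 0 (P0). The P14 knockouts carry Nes-cre, a Cre line of neural progenitors and their progeny, and are likewise homozygous for the loss. The P14 controls are labelled auts2-ex7-fl-het, heterozygous for the floxed allele, and the tissue is hippocampus at postnatal day 14 (P14). Whether Cre is present in these controls is not stated, so they may keep both working alleles or only 1. Because Nes-cre spares cells outside the neural lineage, vessels and microglia in the P14 knockouts may still hold the exon.

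Oxidative phosphorylation is the process by which electrons from NADH and succinate pass through complexes I to IV of the inner mitochondrial membrane to oxygen, while protons are pumped outward and flow back through complex V, the ATP synthase. Complex II is encoded wholly in the nucleus, whereas the other complexes join subunits made in the cytosol with a core of subunits translated inside the organelle. Mature neurons draw most of their ATP from this pathway, and the immature brain also relies on glycolysis and ketone bodies.

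The mitochondrial genes could not all be read on their own, because parts of the mitochondrial genome have been copied into nuclear chromosomes. On GRCm38, a stretch of chromosome 1 on the minus strand holds annotated copies of mt-Co2 (Gm28661), mt-Atp6 (Gm10925), mt-Co3 (Gm28437), mt-Nd3 (Gm28438) and mt-Nd4l (Gm10222), in the same order as in the mitochondrion. Alignment of the GENCODE vM21 transcripts gave 100% identity for 4 of these pairs and 99.7% for Gm28438, which differs from mt-Nd3 at 1 of 345 aligned bases. mt-Atp8 lies between mt-Co2 and mt-Atp6 and overlaps the latter, and no annotated copy covers it whole. It is counted below as wholly copied only from the order of its neighbours, and its own copy was not aligned. The same stretch begins with Gm28439, identical to the first 876 of 1378 bases of mt-Nd4, and ends with Gm29216, 99.8% identical to the last 483 of 1545 bases of mt-Co1. Further copies on chromosomes 2 and 13 are more diverged. Gm13340 is 97.6% identical to all of mt-Co1, Gm13341 is 95.9% identical to mt-Co2, Gm13339 is 96.7% identical to part of mt-Nd2, and Gm4076 is 95.2% identical to part of mt-Nd5. The following sequences show how alike gene and copy are. They give a window of mt-Co1 with its counterparts on chromosomes 1 and 2, the first 60 bases of mt-Nd3 and of its copy, and the first 60 bases of mt-Atp6 and of its copy. Capitals mark the positions at which a copy of the group differs, and mt-Atp6 and Gm10925 have none in this window.
mt-Co1, chrM:6390-6469, plus strand: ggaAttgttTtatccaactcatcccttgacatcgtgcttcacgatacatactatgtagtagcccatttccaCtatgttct
Gm29216, chr1:24616109-24616188, minus strand: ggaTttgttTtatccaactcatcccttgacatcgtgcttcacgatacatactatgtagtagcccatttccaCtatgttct
Gm13340, chr2:22588506-22588585, minus strand: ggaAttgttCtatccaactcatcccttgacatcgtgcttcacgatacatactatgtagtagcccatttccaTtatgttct
mt-Nd3, chrM:9459-9518, plus strand: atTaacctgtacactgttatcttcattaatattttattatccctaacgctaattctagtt
Gm28438, chr1:24613060-24613119, minus strand: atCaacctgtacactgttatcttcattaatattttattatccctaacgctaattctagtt
mt-Atp6, chrM:7927-7986, plus strand: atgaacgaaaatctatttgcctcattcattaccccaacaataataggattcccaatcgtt
Gm10925, chr1:24614592-24614651, minus strand: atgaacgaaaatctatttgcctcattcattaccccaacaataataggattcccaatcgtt
Counted from 1 at the first base of each mitochondrial gene, the difference in Gm29216 is A1066T, those of Gm13340 in this window are T1072C and C1134T, and that of Gm28438 is T3C. Over the rest of the alignment Gm29216 has an unbroken identical run of 479 bases and Gm28438 one of 342, both longer than a sequencing read of 150 bases. In Gm13340 the longest identical run is 148 bases. How reads that match both places were treated is not given in the sources used here, so the counts of mt-Co2, mt-Atp8, mt-Atp6, mt-Co3, mt-Nd3 and mt-Nd4l, which lie wholly inside the copied stretch, are uncertain, and the counts of mt-Co1 and mt-Nd4 are uncertain in part.

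Total gene counts lay between 11247150 and 16796797 in the P0 libraries and between 16830720 and 23340621 in the P14 libraries. In each library between 105 and 107 of the 109 genes had at least 1 count. The hippocampal identity list summed to between 744 and 839 CPM, counts scaled to a common library size, at P0 and between 6694 and 7689 CPM at P14, while the forebrain list summed to between 889 and 1373 CPM at P0 and between 728 and 823 CPM at P14. Both tissues carried their labelled markers, and the forebrain list separated them by little. Total Auts2 counts include every isoform and so do not test the deletion. They came to 160, 136 and 155 CPM in P0 controls, 165, 182 and 161 CPM in P0 knockouts, 97.4, 97.8 and 110.2 CPM in P14 controls and 92.9, 77.5 and 75.1 CPM in P14 knockouts. The library numbers of the P0 libraries run from 1407 to 1410 and from 1415 to 1416. These runs are called number series here, with 4 libraries in the first and 2 in the second (knockout 3 and control 3). No label names them as batches. In bulk RNA, fewer cells of a type and less RNA per cell cannot be told apart, and levels relative to all RNA say nothing of the number of mitochondria.

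Levels are compared between genes as RPKM, the CPM of a gene divided by its exon length in kilobases. The mitochondrial genes outside the copied stretch were the most abundant. mt-Co1, the catalytic core subunit of cytochrome c oxidase, had a mean RPKM of 6704 at P0 and 11640 at P14, and mt-Cytb, the cytochrome b of complex III, had 4721 and 7516. The lowest of these 7 genes in any library was mt-Nd5 at 965 RPKM. The 6 wholly copied genes were far lower, between 32.1 RPKM (mt-Nd3) and 332 RPKM (mt-Co2) over all libraries. As background, the genes of the mitochondrial heavy strand are transcribed together as a long precursor. The nuclear copies had counts of a like size. The ratio of copy to gene lay between 0.946 and 1.16 for Gm10925 and mt-Atp6, between 0.743 and 0.925 for Gm28437 and mt-Co3, and between 0.597 and 0.695 for Gm28661 and mt-Co2. It lay between 0.362 and 1.22 for Gm28438 and mt-Nd3, and between 0.389 and 0.544 for Gm10222 and mt-Nd4l. For the partly copied genes the ratio of copy to gene was at most 0.0103 for Gm29216 and mt-Co1, and at most 0.0311 for Gm28439 and mt-Nd4. In the plot of mitochondrial genes by library the levels drop at the edge of the copied stretch and return at its other edge.

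**Figure D1:**
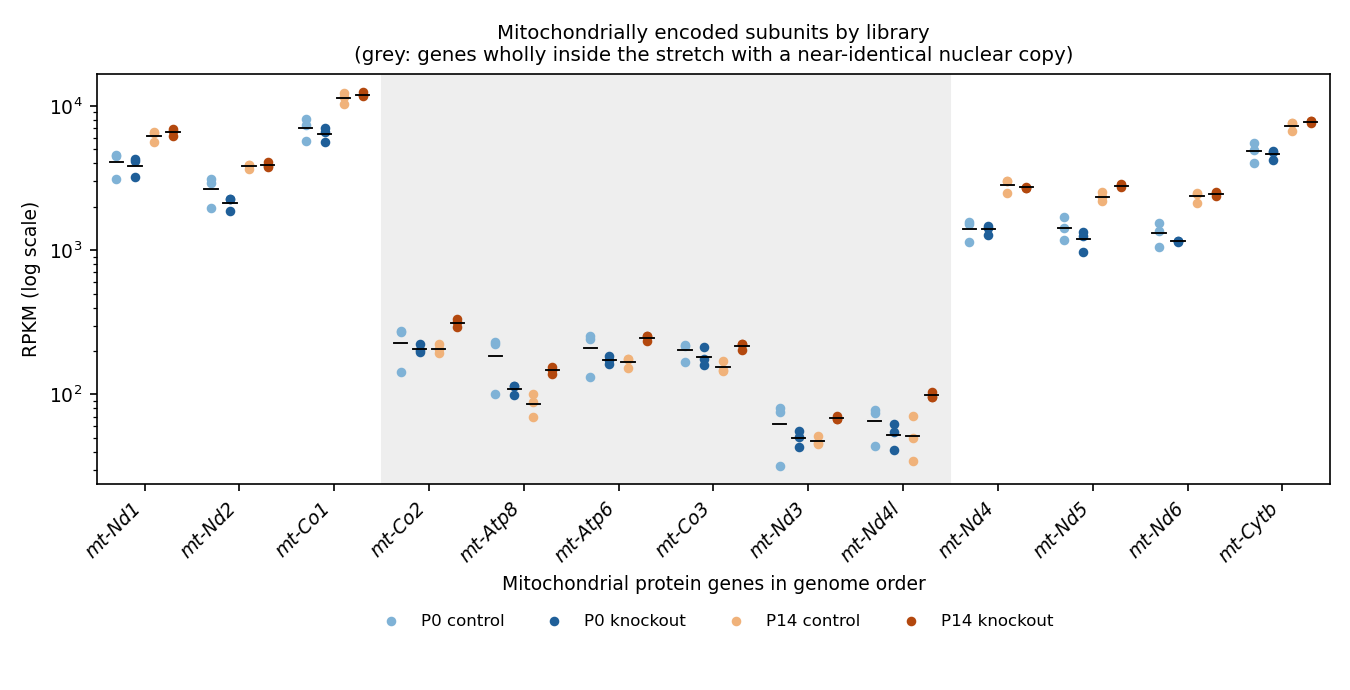
RPKM (log scale) of the 13 mitochondrial protein genes in genome order, each point 1 library and each bar a group mean (n = 3), with the 6 wholly copied genes on grey. These lie between 32.1 and 332 RPKM in every library, and the other 7 between 965 and 12410 RPKM.

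Among nuclear genes, subunits were more abundant than assembly factors. The 38 complex I subunits had a median of 28.3 RPKM at P0 and 37.5 RPKM at P14, against 9.29 and 11.7 RPKM for its 8 Ndufaf assembly factors. Complex III stood at a median of 62.4 and 77.1 RPKM, complex II at 45.3 and 72.5 RPKM, complex IV at 47.7 and 69.9 RPKM and complex V at 51.7 and 64.5 RPKM. Cox8a, a small subunit of complex IV, had the highest mean over all libraries, with a lowest, median and highest value of 184, 217 and 240 RPKM at P0 and 487, 565 and 640 RPKM at P14. The highest of complex V was Atp5a1, the α subunit of the catalytic head, at 216 to 233 RPKM at P0 and 290 to 337 RPKM at P14. Ndufa4, named for complex I and now also assigned to complex IV, led the Nduf genes at 106 to 117 RPKM at P0 and 129 to 186 RPKM at P14. Sdhd, a membrane anchor of complex II, was at 54.3 to 62.1 and 77.9 to 93.8 RPKM. Uqcr11, a small subunit of complex III, was at 56.5 to 73.1 and 135 to 186 RPKM. For each of these 5 genes, every P14 library lay above every P0 library. Of the nuclear genes, 17 align with another annotated gene at 97% identity or more over at least 150 bases. Among them are Ndufaf2, with 6 such copies, Cycs, Uqcrb, Atp5l, Atp5g1 and Cox5b. The counts of the 17 are uncertain in the same way.

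The P0 comparison asked whether loss of the exon in the whole animal changes these genes in the newborn forebrain. None was called there. By edgeR's quasi-likelihood test 0 of 102 genes tested had an adjusted p under 0.05, where 0.909% of all 16176 tested genes did, and 16 had an unadjusted p under 0.05, where 16.1% of all genes did. DESeq2 called 1 gene, Cox6a1. The median log2 fold change was 0.06 over the 89 nuclear genes tested, with 65 above 0, and -0.21 over the 13 mitochondrial genes, with 13 below 0, against -0.00 over all genes, of which 49.9% lay above 0 and 50.1% below. The knockouts lay wholly above the controls for 23 nuclear genes, where this held for 10.7% of all genes, and for 0 mitochondrial genes. They lay wholly below the controls for 0 of the 102, where 11.1% of all genes did. The smallest adjusted p belonged to Cox6a1, the ubiquitous form of a regulatory subunit of cytochrome c oxidase. Its P0 controls had 132, 135 and 154 CPM and its knockouts 175, 168 and 192 CPM. The groups did not overlap, and the log2 fold change reached 0.34 (SE 0.08, edgeR adjusted p 0.0659).

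Atp5k, the small e subunit of the ATP synthase, had the highest positive value at P0. Its controls had 23.3, 28.9 and 45.0 CPM and its knockouts 59.9, 55.0 and 47.9 CPM. Control 3 lay close to the knockouts and the other controls far below them, and the log2 fold change of 0.72 did not pass (edgeR adjusted p 0.214). Atp5k and Cox6a1 both lie on chromosome 5, as does Auts2 itself, and the part of this shared position in their P0 values was not tested. Ndufs6, a zinc-binding subunit of complex I, had a log2 fold change of 0.42 (edgeR adjusted p 0.125), and Ndufb10, a subunit of its membrane arm, had 0.30 (edgeR adjusted p 0.121). At the other end stood mt-Atp8, which anchors the ATP synthase beside mt-Atp6, at -0.75 (edgeR adjusted p 0.382). Its controls had 47.1, 45.4 and 20.5 CPM and its knockouts 23.4, 23.4 and 20.2 CPM, so controls 1 and 2 stood apart from the other 4 libraries.

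The P0 values differed between the library number series, a split that was chosen after seeing the data and that no label names as a batch. In the first series all 13 mitochondrial genes were lower in the knockouts (median difference -0.35 in log2 CPM), and in the second 8 of 13 were higher (median 0.07). mt-Co2, a copper-binding core subunit of complex IV, had 184 and 187 CPM in controls 1 and 2 against 139 and 152 CPM in knockouts 1 and 2. In the second series control 3 had 98.3 CPM and knockout 3 had 134 CPM, so the order was the opposite. The nuclear genes were above 0 in 48 of 89 cases in the first series (median 0.02) and in 78 of 89 in the second (median 0.15), where 50.2% and 51.7% of all tested genes were. Within the first series alone, 2 libraries of each genotype, edgeR called 16 of these genes, where 12.9% of all genes were. Atp5k (1.14), Ndufs6 (0.60), Ndufa3 (0.54), Cox6a1 (0.37), Ndufb10 (0.34), Atp5mpl (0.33) and Cox8a (0.28) were higher, Cox5a (-0.27) and 8 mitochondrial genes were lower, with mt-Atp8 (-0.98) the lowest. With the series as a term 4 were called, where 2.87% of all genes were, Cox6a1, Ndufs6 and Ndufb10 higher and mt-Nd2 lower. Without control 3 there were 8, where 1.51% of all genes were called, and without knockout 3 there were 2, where 4.69% were. The second series holds 1 library of each genotype and so gives no test of its own.

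At P14 the question was put to hippocampus in which the exon was deleted from neural cells. The genes called higher were copied mitochondrial ones. Of 105 genes tested with edgeR, 6 were called, where 1.99% of all 17208 tested genes were, and 5 of the 6 were mt-Co2, mt-Atp8, mt-Atp6, mt-Co3 and mt-Nd3, all higher. All 6 wholly copied genes had every knockout library above every control, where 9.41% of all genes did. The other 7 mitochondrial genes had log2 fold changes from -0.05 to 0.27 and 0 calls in the main edgeR fit, with 1 at an unadjusted p under 0.05, mt-Nd5. DESeq2 called mt-Nd5, as did edgeR with a GC content offset (adjusted p 0.0128) and without control 3 (adjusted p 0.00201). Of these 7, mt-Nd5 and mt-Cytb also had every knockout above every control, with 4956 to 5222 against 3998 to 4582 CPM and 8754 to 8919 against 7679 to 8674 CPM. The nuclear genes had a median of -0.06, with 74 of 92 below 0, where 51.5% of all genes were, and 1 call, Ndufaf4. In 4 of the nuclear genes, Ndufaf4, Cox4i2, Cox7a1 and Ndufa4l2, every knockout lay below every control, where 10.6% of all genes did. The endothelial and mural lists also lay lower in the P14 knockouts, with sums of 291 to 305 CPM against 349 to 372 CPM and of 310 to 426 CPM against 452 to 473 CPM. In each 1 of 10 members was called lower, where 0.773% of all genes were. These were Itm2a (-0.42, edgeR adjusted p 0.0343) and Vtn (-0.65, edgeR adjusted p 0.00892). Both lists were chosen with earlier results of these data known, and their part in the 4 genes was not tested.

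mt-Co2 rose from 132, 152 and 141 CPM in controls to 216, 227 and 200 CPM in knockouts. mt-Atp6, part of the proton channel of the ATP synthase, rose from 104, 120 and 120 CPM to 174, 173 and 159 CPM. mt-Co3, the third core subunit of complex IV, rose from 114, 134 and 117 CPM to 175, 177 and 159 CPM. In each of these 3 genes the lowest knockout stood clear of the highest control. The log2 fold changes were 0.61 (SE 0.08, edgeR adjusted p 0.000879), 0.57 (SE 0.08, adjusted p 0.00205) and 0.50 (SE 0.08, adjusted p 0.00500). mt-Atp8 rose from 14.1, 18.1 and 20.5 CPM to 31.4, 28.3 and 30.1 CPM, a log2 fold change of 0.78 (SE 0.12, edgeR adjusted p 0.00500). mt-Nd3, a membrane subunit of complex I, rose from 16.1, 15.9 and 17.9 CPM to 23.5, 23.4 and 24.6 CPM (log2 fold change 0.53, SE 0.10, edgeR adjusted p 0.0127). The mt-Nd3 call was kept in 10 other fits and lost in 6, among them 1 fit on all 12 libraries (edgeR adjusted p 0.426). The calls of mt-Co2, mt-Atp6 and mt-Atp8 were lost in 1 fit each, and that of mt-Co3 was kept in all 16. mt-Nd4l, another membrane subunit of complex I, had 10.3, 14.8 and 21.1 CPM in controls and 28.6, 30.9 and 28.7 CPM in knockouts. Its controls varied by more than its knockouts, and the log2 fold change of 0.94 (SE 0.23) did not pass (edgeR adjusted p 0.109). DESeq2 called it (0.94, adjusted p 4.99e-05), as did edgeR without control 3 (1.24, adjusted p 1.97e-05).

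The nuclear copies of the same stretch were higher in the same libraries. Gm28661 had 81.1, 94.6 and 89.6 CPM in controls and 129, 144 and 122 CPM in knockouts, a log2 fold change of 0.59 (edgeR adjusted p 0.00247). The fold changes of Gm10925, Gm28437, Gm29216 and Gm28439 were 0.52, 0.41, 0.58 and 0.51, and edgeR called each of them. Gm28438 (0.42, edgeR adjusted p 0.148) and Gm10222 (0.74, edgeR adjusted p 0.134) were not called. On chromosomes 2 and 13, Gm13340 (0.68, edgeR adjusted p 0.00346), Gm13341 (0.68) and Gm4076 (0.93) rose as well, and Gm13339 (0.43, edgeR adjusted p 0.0713) did not pass. mt-Co1, to which both Gm29216 and Gm13340 correspond, had 18845, 17790 and 15856 CPM in controls and 18319, 19173 and 17930 CPM in knockouts. Its groups overlapped, and its log2 fold change of 0.09 (SE 0.07) did not pass (edgeR adjusted p 0.608). Summed over the library, the 6 copied genes made up 0.0356% to 0.0428% of counts in P14 controls and 0.0563% to 0.0612% in knockouts, while the other 7 made up 4.22% ± 0.219 and 4.46% ± 0.0429 (SD, n = 3 each). Whether the copied genes' reads came from the mitochondrion or from the nuclear copies was not tested.

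**Figure D2:**
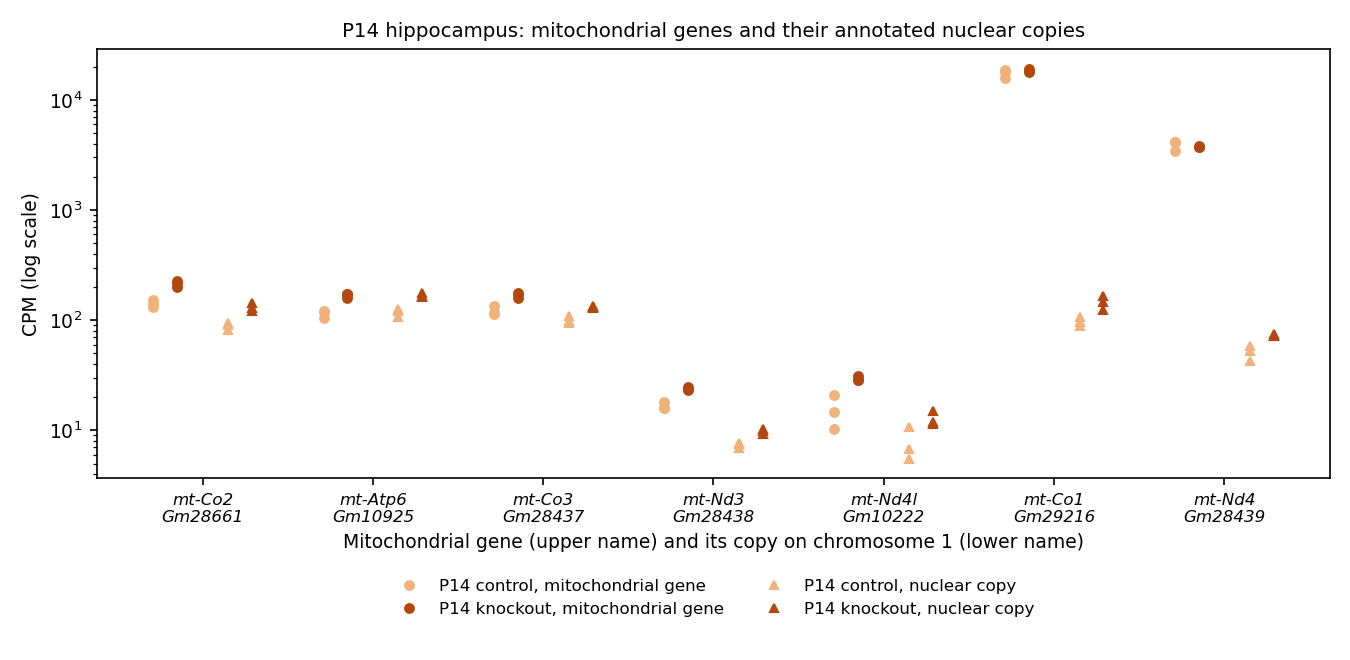
CPM (log scale) in the 6 P14 libraries of 7 mitochondrial genes (circles) and their chromosome 1 copies (triangles), controls in light and knockouts in dark orange. Circles and triangles are higher in knockouts for the 5 copied genes drawn at left, while mt-Co1 and mt-Nd4 overlap between genotypes and their copies Gm29216 and Gm28439 do not.

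Ndufaf4, which encodes an assembly factor of complex I, was the nuclear gene that fell. It lies on chromosome 4 from 24898083 to 24905001 on the plus strand of GRCm38. Its P14 controls had 46.1, 44.8 and 36.0 CPM and its knockouts 31.2, 30.6 and 31.7 CPM. Control 3 lay nearest to the knockouts, and the groups did not overlap. This gave a log2 fold change of -0.43 (SE 0.10, edgeR adjusted p 0.0327). The call was lost when any library other than control 3 was left out (adjusted p 0.0919 to 0.208), and with a GC content offset (log2 fold change -0.31, adjusted p 0.134), the larger strand column (adjusted p 0.126) or non-robust fitting (adjusted p 0.0503).

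The P14 counts of calls depended on control 3. Without it edgeR called 25 of these genes, where 10.3% of all genes were, of which 18 nuclear genes were lower and 7 mitochondrial genes higher, and the nuclear median moved to -0.15. The 18 came from complexes I, III, IV and V, with Ndufaf4 (-0.53), Ndufa5 (-0.43), Ndufaf1 (-0.43) and Cox7c (-0.40) lowest. Without control 1 the nuclear median was 0.01, so the direction of the nuclear genes at P14 is not fixed by these libraries. The nuclear genes took 1.12%, 1.07% and 0.921% of counts in controls 1, 2 and 3, and 0.960%, 0.972% and 1.00% in the knockouts, so control 3 lay below all knockouts and the other controls above them. The list of choroid plexus and ependymal markers was lowest in control 1 and highest in control 3. It summed to 166, 984 and 2553 CPM in controls 1, 2 and 3 and to 1529, 2050 and 1392 CPM in the knockouts. In the dentate granule cell list 8 of 10 members were called lower in the knockouts, where 0.773% of all genes were. The list was chosen with earlier results of these data known, so this count is no independent test. This list summed to 881, 949 and 921 CPM in controls and to 615, 569 and 625 CPM in knockouts. The part of either list in the values above was not tested.

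**Figure D3:**
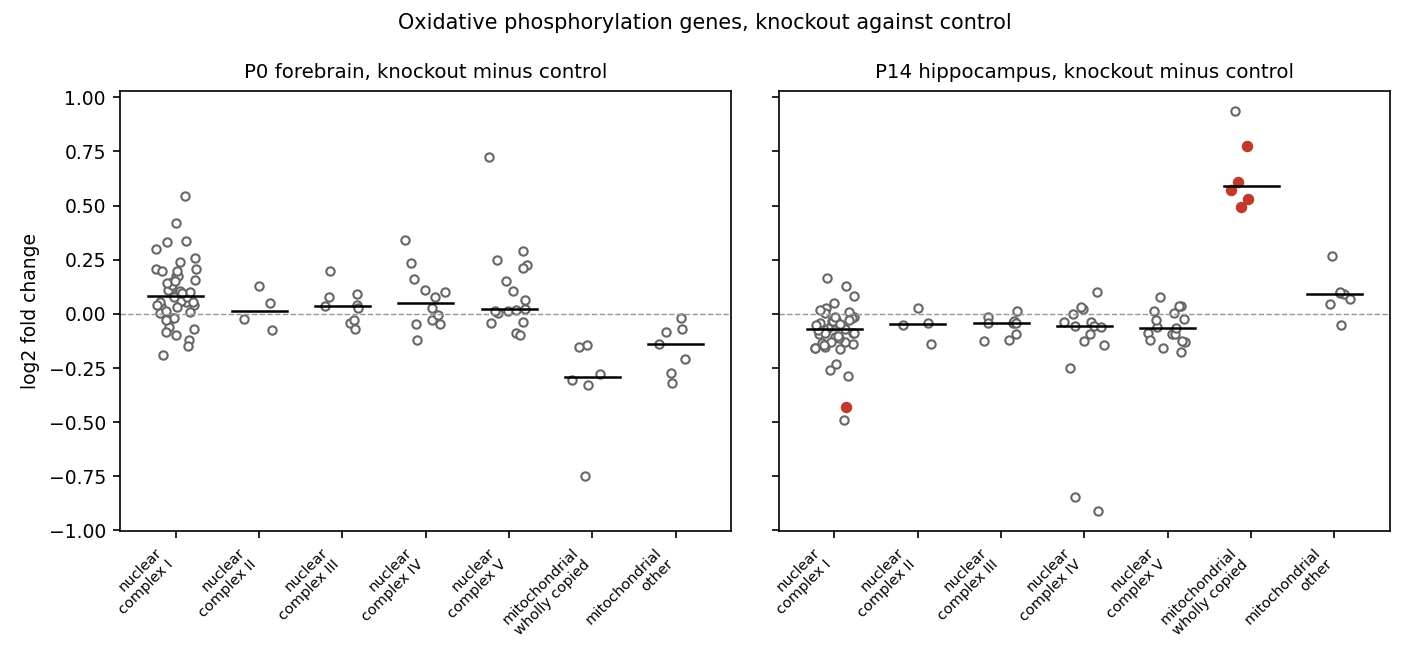
Log2 fold change of each gene tested (points; filled where the edgeR adjusted p is under 0.05) by complex and genome, with the class median as a bar, at P0 (left) and P14 (right); Cycs, at 0.01 and -0.07, is not drawn. The filled points are 5 wholly copied mitochondrial genes and Ndufaf4, all at P14.

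Mitochondrial and nuclear genes were also set side by side within each library. The 13 mitochondrial genes took 3.49%, 3.25% and 2.47% of counts in P0 controls and 3.03%, 2.93% and 2.47% in P0 knockouts, so the lowest values were those of the second number series. At P14 they took 4.37%, 4.39% and 4.004% in controls and 4.57%, 4.48% and 4.52% in knockouts. The ratio of mitochondrial to nuclear counts was 3.72 ± 0.642 in P0 controls and 3.27 ± 0.412 in P0 knockouts (SD, n = 3 each), with overlapping groups. It was 4.12 ± 0.215 in P14 controls and 4.62 ± 0.125 in P14 knockouts (SD, n = 3 each). Each P14 knockout (4.51 to 4.76) lay above each control (3.92 to 4.35), while the P0 groups (2.79 to 4.32 over both) did not separate. The P14 difference of mean log2 ratios was 0.17, and 0.19 without the 6 wholly copied genes and the partly copied mt-Co1 and mt-Nd4. It is given as a description only, with no test.

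**Figure D4:**
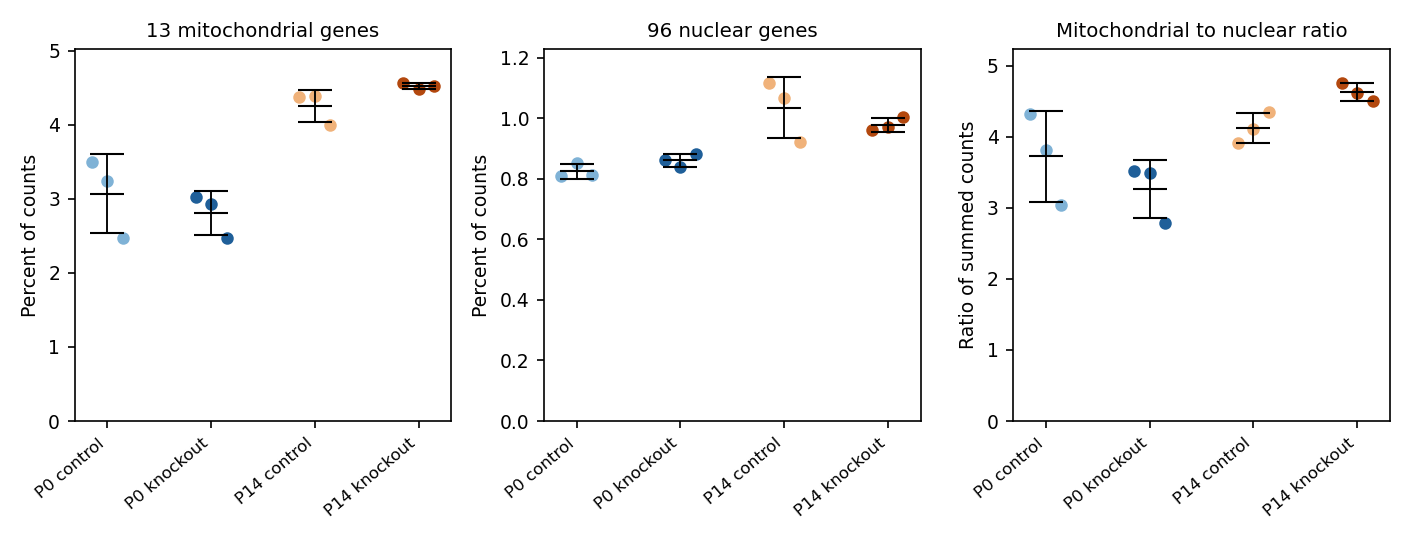
Percent of counts taken by the 13 mitochondrial genes (left) and the 96 nuclear genes (middle), and the ratio of their counts (right), each point 1 library with the mean and SD of the group (n = 3). The ratio lies between 4.51 and 4.76 in P14 knockouts, above the 3.92 to 4.35 of their controls, and overlaps between the P0 groups.

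An interaction term, fitted to the 12 libraries together, compared the effect of genotype at P14 with that at P0. By edgeR 1 of 105 genes was called, where 1.79% of all 18189 tested genes were. This was mt-Co3, with a difference of 0.63 between its P14 and P0 effects on the log2 scale (SE 0.16, edgeR adjusted p 0.0441); 1.37% of all genes were called in that direction. At P0 its controls had 174, 170 and 133 CPM and its knockouts 124, 138 and 167 CPM, so the groups overlapped and their order differed between the number series. The other 5 copied genes had higher differences with wider errors, from 0.74 (mt-Co2, SE 0.29, edgeR adjusted p 0.266) to 1.51 (mt-Atp8, SE 0.40, edgeR adjusted p 0.113), and did not pass. In 12 of 13 mitochondrial genes the difference was above 0 (median 0.52), where 48.7% of all genes were. Among the nuclear genes 83 of 92 had a negative difference (median -0.15), where 51.3% of all genes did, and 0 were called by edgeR or DESeq2, with 16 at an unadjusted p under 0.05, where 15.3% of all genes were. The smallest adjusted p among them was that of Ndufb10 (-0.48, edgeR adjusted p 0.0842). Without P14 control 3 edgeR called 14 of the 105, where 4.85% of all genes were, and 13 of these were nuclear and lower. Without P0 control 3 it called 9, where 2.50% of all genes were, and 8 of these were mitochondrial and higher.

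Levels in P14 hippocampus were then compared with those in P0 forebrain over all 12 libraries. Most of the nuclear subunits and the mitochondrial genes outside the copied stretch were higher at P14. Of 105 genes tested with edgeR, 82 were called, 79 higher and 3 lower, where 73.8% of all genes were called, 36.6% higher and 37.3% lower. The median log2 fold change was 0.39 over the nuclear genes and -0.02 over all genes. Of the nuclear genes 80 lay above 0 and 12 below, where 49.1% and 50.9% of all genes did. In 55 of the 105 every P14 library lay above every P0 library, where 26.3% of all genes did. The share called higher was 68 of 83 among nuclear subunits and the carrier, and 4 of 9 among assembly and coupling factors, of which 2 were lower. By complex, 35 of 46 nuclear genes of complex I, 3 of 4 of complex II, 9 of 9 of complex III, 10 of 15 of complex IV and 14 of 17 of complex V were higher. The groups differ at once in age, tissue, the Cre used and the genotype of the controls, whose parts cannot be told apart.

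Leaving aside nuclear genes whose mean log2 CPM was below 1, the 6 nuclear genes that rose most were small subunits of complexes III and IV and Sdha. Cox8a rose by 1.42 on the log2 scale (SE 0.06), from the RPKM given above. Uqcr11 rose by 1.30 (SE 0.07), from a median of 63.9 to 161 RPKM. Sdha, the flavoprotein of complex II that oxidises succinate, rose by 1.096 (SE 0.05), from 36.2 to 39.8 RPKM at P0 to 74.6 to 93.2 RPKM at P14. Cox6a1 (0.93, SE 0.07), Cox5b (0.91, SE 0.07), a zinc-binding subunit of complex IV, and Uqcr10 (0.82, SE 0.07), a small subunit of complex III, followed. Each of these 6 had every P14 library above every P0 library, and edgeR adjusted p lay between 4.35e-15 and 3.00e-10. Cytochrome c itself, Cycs, rose by 0.77, from a median of 20.6 to 34.4 RPKM.

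The 3 genes called lower in the main fit were Ndufaf6 (-0.50, SE 0.10, edgeR adjusted p 0.000173), Ndufaf2 (-0.37, SE 0.09, edgeR adjusted p 0.00108) and Atp5g2 (-0.29, SE 0.07, edgeR adjusted p 0.000362). Ndufaf6 and Ndufaf2 encode assembly factors of complex I, and Atp5g2 is 1 of the genes of the c ring of the ATP synthase. Ndufaf6 had 7.01 to 7.88 RPKM at P0 and 4.58 to 5.71 RPKM at P14, with no overlap, whereas Ndufaf2 had 4.73 to 6.26 and 3.75 to 4.77 RPKM, which overlap. In the 6 control libraries alone Ndufaf2 (adjusted p 0.0530) and Atp5g2 (adjusted p 0.0595) did not pass by edgeR.

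The mitochondrial genes split by the copied stretch in this comparison too. The 7 genes not wholly inside it rose by 0.67 (mt-Cytb) to 1.00 (mt-Nd4), with edgeR adjusted p between 4.49e-11 and 1.25e-05, and every P14 library lay above every P0 library. mt-Nd4, mt-Nd5 and mt-Nd6, all complex I subunits, had the larger changes, 1.00, 0.97 and 0.96. None of the 6 copied genes was called by edgeR or DESeq2, with 0 at an unadjusted p under 0.05, where 75.3% of all genes were, and log2 fold changes from -0.33 (mt-Atp8) to 0.31 (mt-Nd4l). Their median of 0.07 changed sign with the setting. It was -0.01 with upper-quartile scaling, -0.02 in the larger strand column, -0.06 without P0 control 3 and -0.35 in control libraries alone. It was 0.50 in knockout libraries alone and 0.60 with an offset on gene length, and in both of these fits all 13 mitochondrial genes were called higher. Calls also went the other way, for mt-Co3 in control libraries alone (-0.39, edgeR adjusted p 0.00396) and for mt-Atp8 without P0 control 3 (-0.47, edgeR adjusted p 7.22e-05).

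**Figure D5:**
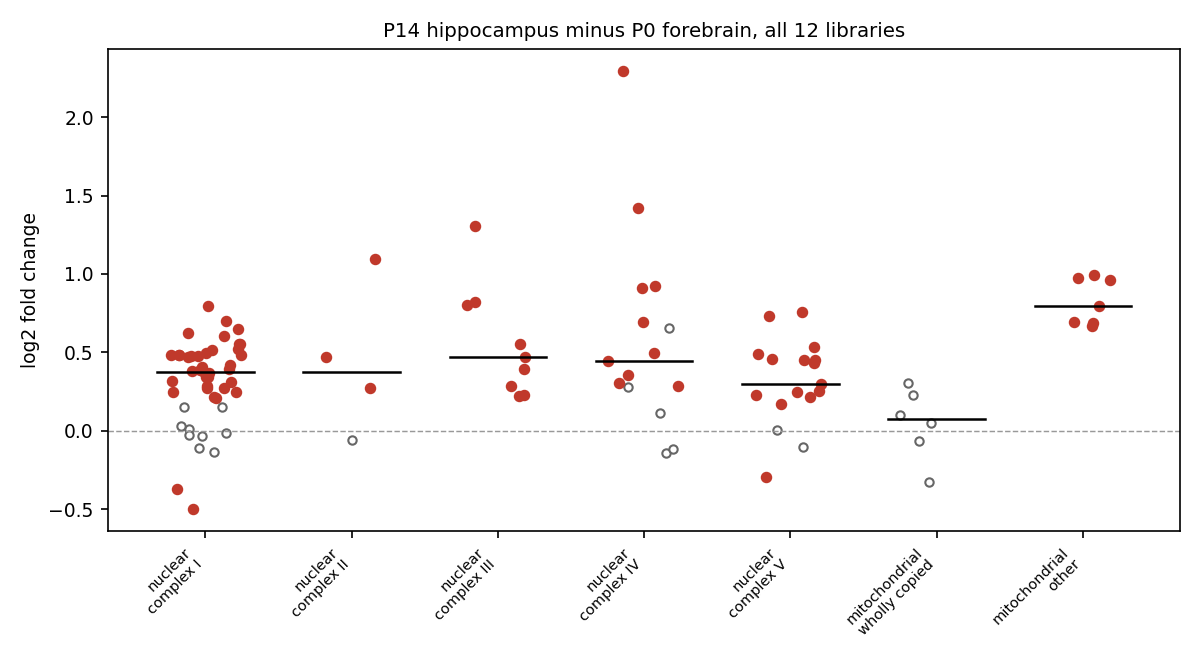
Log2 fold change of P14 hippocampus over P0 forebrain for each gene tested, by complex and genome (points; filled where the edgeR adjusted p is under 0.05), with class medians as bars; Cycs, at 0.77, is not drawn. The nuclear classes have medians between 0.30 and 0.47, the wholly copied mitochondrial genes 0.07 and the other mitochondrial genes 0.80.

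Cell types differ between these tissues as well. All 10 astrocyte and all 10 oligodendrocyte markers were called higher at P14, and 9 of 10 progenitor markers lower. Of all genes 36.6% were called higher and 37.3% lower. Astrocyte markers summed to between 654 and 904 CPM at P0 and between 6865 and 7381 CPM at P14, oligodendrocyte markers to between 107 and 128 CPM and between 3167 and 6828 CPM, and progenitor markers to between 434 and 505 CPM and between 163 and 204 CPM. Mitochondrial ribosomal RNA took between 0.144% and 0.183% of counts at P0 and between 0.569% and 0.850% at P14. The list of nuclear-retained RNAs had 6 of 8 members called higher, with sums of 2858 to 4732 CPM at P0 and 5122 to 7362 CPM at P14. The part of these lists and shares in the rise of the subunits was not tested.

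Several subunits have tissue-restricted forms, and the ubiquitous form made up nearly all of the RNA in these brains. Cox4i1 had 99.1% ± 0.199 of the RPKM of the Cox4 pair in P14 controls, and Cox6a1 had 99.2% ± 0.127 of the Cox6a pair (SD, n = 3 each). Cox6a2, the heart and muscle form, rose at P14 by 2.29 (SE 0.27, edgeR adjusted p 7.60e-08), but only from a median of 0.720 to 3.48 RPKM. The list of striated muscle markers summed to at most 39.7 CPM in any library. Cox7a1, the muscle form of the Cox7a family, was at 0.445 to 2.17 RPKM, and Cox4i2, an oxygen-regulated form, at 0.630 to 1.74 RPKM. Their P14 knockouts lay below their P14 controls (log2 fold changes -0.91 and -0.84), with 8 to 26 counts per library and no call (edgeR adjusted p 0.251 and 0.225), beside the lower endothelial and mural sums given above. Ndufa4l2, the hypoxia-induced relative of Ndufa4, was at 1.00 to 2.85 RPKM against at least 106 RPKM for Ndufa4. Cox8b had at most 3 counts in a library, Cox8c had 0 in every library, and Cox7b2 had at most 8. These 3 genes and a second identifier named Atp5o, with 0 counts throughout, passed no filter on low counts, and at P0 Cox4i2, Cox7a1 and Cox6a2 did not pass either.

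The c ring of the ATP synthase is encoded by Atp5g1, Atp5g2 and Atp5g3, whose different leader peptides are cleaved to give the same mature protein. Atp5g3 had the largest share of their summed RPKM in every group, 65.7% ± 0.960 in P0 controls and 67.2% ± 0.126 in P14 controls (SD, n = 3 each). The other two changed places between the tissues. Atp5g1 had 12.7% ± 0.669 and Atp5g2 21.6% ± 1.21 in P0 controls, and 17.2% ± 0.595 and 15.6% ± 0.721 in P14 controls (SD, n = 3 each). In every P0 library Atp5g2 had more than Atp5g1, and in every P14 library less. The knockouts kept the same order, with 11.3% ± 0.446 and 23.6% ± 1.93 at P0 and 17.6% ± 0.413 and 16.5% ± 0.211 at P14. By edgeR Atp5g1 rose by 0.73 (SE 0.06, adjusted p 2.94e-10) and Atp5g3 by 0.23 (SE 0.05, adjusted p 0.000645) at P14, while Atp5g2 fell as given above.

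Other lists of the pathway were counted in the same fits. They held 42 further assembly factors of the complexes, 27 genes of mitochondrial DNA upkeep, transcription and translation and 15 regulators of mitochondrial biogenesis. They also held 18 genes of the tricarboxylic acid cycle and 19 carriers and import or mass markers. Among all of these edgeR called 0 genes at P0, 0 at P14 and 0 in the interaction. Of all genes it called 0.909%, 1.99% and 1.79%, so counts of 0 lie near those shares. Of 17 glycolytic genes 1 was called, Eno2, the neuronal enolase, lower in P0 knockouts (-0.45, edgeR adjusted p 0.0459), where 0.717% of all genes were called lower. The neuronal list, with Nefl (-0.47) and Nefm (-0.42) called lower, summed to 6119 to 6546 CPM in P0 controls and 5780 to 6069 CPM in knockouts. The astrocyte list summed to 705 to 904 CPM and 654 to 664 CPM, and the oligodendrocyte precursor list to 943 to 1065 CPM and 740 to 864 CPM. The dentate granule cell list, with Calb1 (-0.59) called lower, summed to 298.3 to 324.1 CPM and 268.6 to 293.5 CPM. The oligodendrocyte list summed to 127.3 to 127.9 CPM and 106.6 to 123.5 CPM. Other lists went the other way. The forebrain identity list summed to 889 to 1120 CPM in P0 controls and 1173 to 1373 CPM in knockouts. The choroid plexus and ependymal list summed to 683 to 858 CPM and 909 to 1005 CPM. None of these sums overlapped between the genotypes, and their part in the P0 values was not tested. All lists were chosen with earlier results of these data known. Between tissues, where 36.6% of all genes were called higher and 37.3% lower, the counts were as follows. The tricarboxylic acid cycle had 17 of 18 genes higher at P14 (median 0.68), among them Dlat (1.46) and Idh3a (1.13), and glycolysis had 16 of 17 higher (median 1.24), among them Aldoc (2.72) and Eno2 (2.60). The other assembly factors had 21 of 40 higher and 7 lower (median 0.19), with Higd1a (1.01) and Ttc19 (0.92) higher. The genes of mitochondrial DNA upkeep, transcription and translation had 3 of 26 higher and 10 lower (median -0.11). Among them Polg (0.62), the mitochondrial DNA polymerase, was higher. Tfam (-0.46), which packages mitochondrial DNA and helps start its transcription, was lower. Of the regulators 8 of 15 were higher and 5 lower, with the coactivator Ppargc1a (1.15) and its partner Esrra (1.04) higher.

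The nuclear genes share little in position. They lie on 19 chromosomes, with 3 on X and 0 on Y. Their median exon length was 1696 bases, against 3895 bases over all genes tested.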

How the data were processed

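Counts of reads per Ensembl gene were deposited by the authors, 1 table per library. The submitters' processing notes name STAR 2.7.5a and edgeR 3.12 without a role, and GRCm38. The handling of reads that match several places is not given in the sources used here. The deposited unstranded count was used and held 0 rows without a gene. Replicates were numbered in accession order and pair nothing. Symbols and coordinates came from GENCODE vM21.

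Each comparison was fitted on the whole table with edgeR 4.0.16 (filterByExpr, TMM, robust quasi-likelihood test, two-sided, Benjamini-Hochberg threshold 0.05), and members were then read out. CPM use TMM-scaled library sizes over 12 libraries, and RPKM use exon length. The tests set the difference between groups against the variation left among libraries, each from 1 animal. In the main P0 fit this variation includes any difference between the number series. Counts per library set the precision, and reads carry no molecular identifiers. Copies were found with blastn 2.17.0 (at least 95% identity over 100 bases). The script was tested on simulated data. Alternatives used RLE, upper-quartile, DESeq2 1.42.0, other filters, offsets, the strand column and left-out libraries. All members may be named. Values per library are given for mitochondrial genes, called genes (the 6 largest rises and falls where more than 12 are called), the most abundant gene of each complex and isoform pairs. The members and 22 lists were chosen with earlier results of these data known.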

Additional observations from a re-analysis of the deposited data

Results flagged for a closer look

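In the main fit the genotype effect on mt-Co3 differed between the P14 and P0 comparisons. These differ at once in age, tissue, Cre and control genotype, whose parts cannot be told apart. On the log2 scale the P14 effect exceeded the P0 effect by 0.63 (SE 0.16, edgeR interaction adjusted p 0.0441). Knockout libraries lay above all controls at P14, and the P0 groups overlapped. mt-Co3 lies wholly inside the stretch copied to chromosome 1, and its annotated copy Gm28437 had an interaction of 0.44 (edgeR adjusted p 0.122). The direction was the same in every other fit run, but the call was lost in 12 of 21 fits, among them 9 of the 12 that left out 1 library, where the value ranged from 0.54 to 0.77.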

How the results depend on the processing

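At P0 the count of 0 called genes became 4 with no count filter, 1 with a GC content offset, 1 with DESeq2, 4 with a term for number series and 16 in the first series alone; leaving out 1 library gave 0 to 8. Calls over all genes rose in those settings too, from 0.909% to 1.99%, 2.28%, 2.31%, 2.87% and 12.9%. At P14 the 6 became 1 without the mitochondrial genome, since only Ndufaf4 could then be called, and 2 in 1 fit on all 12 libraries; leaving out 1 library gave 4 to 25. The interaction count of 1 became 2 with DESeq2, 6 without a filter, 0 without the mitochondrial genome, 3 with a gene length offset, 2 with a GC content offset and 0 in the larger strand column; leaving out 1 library gave 0 to 14. The cause was not tested except where fewer genes could be called. The 82 genes called between the tissues stayed between 75, without the mitochondrial genome, and 91, with a gene length offset. Their split by direction moved more. The nuclear genes had 72 calls higher and 3 lower in the main fit. They had 64 higher and 9 lower with upper-quartile scaling, and 59 higher and 6 lower in knockout libraries alone. The median of the copied genes between tissues and that of the nuclear genes at P14 changed sign, as given above. No paired analysis was possible because the replicate numbers come from accession order. The difference of the mean log2 ratio of mitochondrial to nuclear counts was -0.18 at P0, and, in a split chosen after seeing the data, -0.21 in the first and -0.12 in the second number series. Cox4i2 and Cox7a1, with at most 26 counts in a library, are limited by depth.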
